A study of Mus musculus with 7 samples.

Results

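Mouse haematopoietic stem and progenitor cells (HSPCs) overexpressing MN1pQdel, the MN1 protein without its polyglutamine stretch, were compared with untransduced cells of the same labelled type, called noTD. The samples were chosen by their labels: 3 MN1pQdel libraries and 1 noTD library, 4 of the 7 libraries in the series. The other 3 libraries came from HSPCs overexpressing full-length MN1. They were scaled together with these 4, and their values stand beside the results where they help to place a gene. Per the labels' protocols, cells were transduced, sorted and kept for 7 to 9 days with interleukin-3, interleukin-6 and stem cell factor, and poly(A) RNA was read from both ends at 150 bases. All groups shared that medium. The title and the overexpression label (none) mark noTD as untransduced, while its source label reads transduced, as for every other sample. No library of cells with an empty vector was analysed here, so an effect of transduction and sorting cannot be told apart from one of MN1pQdel. The sources used here do not state the mouse strain and age, the construct's promoter or its species. The series text calls the MN1pQdel samples independent, while the sources are silent on whether separate animals were used.

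MN1 is a transcriptional co-regulator without a known DNA-binding domain of its own, and its overexpression turns mouse marrow progenitors into an aggressive myeloid leukaemia. Full-length MN1 keeps such cells immature, with high HOXA and Meis1 expression and a block of granulocyte maturation. Polyglutamine stretches are runs of 1 amino acid found in many transcription regulators, where they can mediate contacts between proteins. HSPC cultures with interleukin-3 and stem cell factor normally go on to make neutrophils, mast cells, basophils, eosinophils and macrophages. Type I interferon signals through the receptor chains Ifnar1 and Ifnar2 to a complex that includes Stat2 and Irf9, which binds a promoter element rich in GAAA and switches on a set of antiviral genes.

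Mn1, the targeted gene, lay far above noTD in every MN1pQdel library. Mn1 (a protein-coding gene on the plus strand of chromosome 5, GRCm38 111417362 to 111457033) stood at 33.6 CPM (counts scaled to library size) in noTD and at 691, 404 and 728 CPM in MN1pQdel replicates 1, 2 and 3. The log2 difference from noTD averaged 4.13 ± 0.47 (SD, n = 3), and the nearest library, replicate 2, was 3.59 above noTD. Of the groups, the MN1pQdel libraries also lay above the MN1 libraries, which held 314, 287 and 288 CPM. In that comparison Mn1 was 1.05 higher on the log2 scale in MN1pQdel (SE 0.23, adjusted p = 0.0282 by edgeR with Benjamini-Hochberg correction), a call kept in 1 of the 6 leave-one-out fits, the one without MN1pQdel replicate 2. Construct transcripts that match the mouse reference and those of the mouse's own gene fall under 1 symbol. The level thus checks the label and does not separate the sources. The construct's species is not stated, so how fully its transcripts were counted is unknown. The stretch that MN1pQdel lacks lies, in the mouse gene, in exon 1 of 2 at positions 111419699 to 111419776. It is shown from 10 codons before to 10 codons after, with the 26 glutamine codons (18 CAG and 8 CAA, codons 512 to 537 of 1297) in capitals.
Mn1 repeat, GRCm38 chromosome 5, 111419669 to 111419806, plus strand: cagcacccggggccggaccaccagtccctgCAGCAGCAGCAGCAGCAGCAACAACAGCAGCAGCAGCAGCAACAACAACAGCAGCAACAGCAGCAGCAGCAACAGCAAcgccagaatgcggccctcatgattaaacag
The sources used here do not state the exact ends of the deletion in the construct.

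The labelled cell type was checked against marker genes. Kit, the stem cell factor receptor gene, stood at 605 CPM in noTD and at 531, 248 and 875 CPM in MN1pQdel. It is also on the mast cell list used below, so its level does not mark progenitors alone. Cd34, a progenitor surface marker gene, stood at 301 CPM in noTD and at 261, 258 and 160 CPM in MN1pQdel. Markers of maturing cells were higher still: Cpa3 of mast cells and basophils, at 7079 CPM in noTD, and Ltf of neutrophil granules, at 5488 CPM, show that both groups also held RNA of differentiated cells. Of 12 fibroblast and stromal genes, 4 passed the 1 CPM filter and 8 did not. Among the latter, Dcn, Lum, Col3a1, Postn and Pdgfra were at 0.0822 CPM or less in these 4 libraries, and do not stand for the whole list. The list summed to 45.5 CPM in noTD and to 41.8, 38.4 and 31.8 CPM in MN1pQdel, led in noTD by Fn1, the fibronectin gene, at 23.2 CPM and at 12.7, 15.0 and 6.98 CPM in MN1pQdel. In bulk RNA, fewer cells of a type and less RNA per cell cannot be told apart, which holds for every marker below. Library totals ran from 38210660 to 67728658 counts, with 38642911 in noTD, and 3 counts, the floor used for a gene at 0, correspond to 0.0822 CPM there.

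Few genes separated all 3 MN1pQdel libraries from noTD. A gene was described where the mean of the noTD level and the mean MN1pQdel level reached 1 CPM, which kept 12232 genes, and was called where every MN1pQdel library lay at least 2-fold to the same side of noTD. With 1 noTD library these are descriptions without a p-value. Of the 12232 genes, 10 (0.0818%) were higher and 86 (0.703%) lower in MN1pQdel. The noTD level fell below the MN1pQdel range, by any amount, for 2984 genes (24.4%) and above it for 1934 (15.8%), so 4918 genes (40.2%) lay outside the range. A single library often falls outside the range of 3 others without any difference between groups, so this share is not a count of changed genes. By the same 2-fold rule the 3 MN1 libraries held 622 higher (5.09%) and 1363 lower genes (11.1%) against the same noTD library. These were counted over the same 12232 genes, which were chosen without regard to MN1 levels. Genes high in MN1 alone, such as Hoxa10, are therefore missing from the higher count. The 2 comparisons share that library, so their values are set side by side only.

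**Figure D1:**
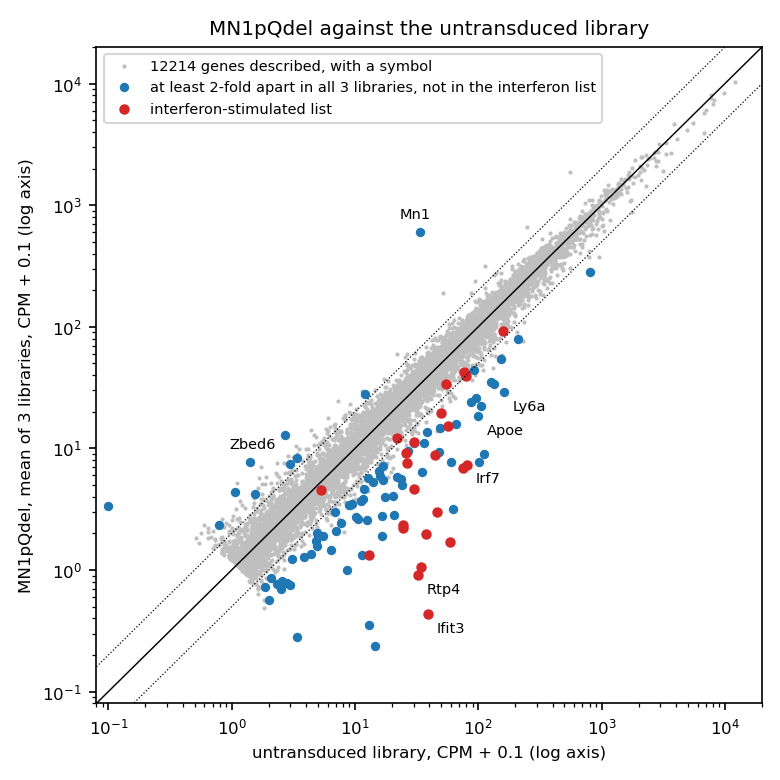
Mean level of the 3 MN1pQdel libraries (vertical axis, CPM + 0.1, log scale) against the noTD library (horizontal axis, CPM + 0.1, log scale), 1 point per gene described that has a symbol. The solid line marks equal levels and the dotted lines 2-fold differences; Mn1 lies above the lines at 607 against 33.6 CPM, and most interferon-stimulated genes (red) lie below them.

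One MN1pQdel library stood apart from the other 2, and every result below is given with that in view. Replicate 1 differed at least 2-fold from noTD in 293 genes (2.40% of 12232) and replicate 3 in 546 (4.46%), while replicate 2 did so in 1808 (14.8%). Replicates 1 and 3 differed from each other in 534 genes (4.37%), against the 293 and 546 that separated them from noTD. Replicate 2 differed from replicates 1 and 3 in 1624 and 1918 genes, and from the MN1 libraries in 1091, 1266 and 1446. By this measure replicates 1 and 3 lay next to noTD, and replicate 2 lay nearer to the MN1 libraries than to its own group. Mn1 was lowest in replicate 2 among the 3. Without replicate 2, 36 genes were higher (0.294%) and 140 lower (1.14%) than noTD, and noTD lay outside the range of the remaining 2 libraries for 7112 genes (58.1%). Since a call needs every library, leaving one out can only add calls. Likewise, the range of fewer libraries can only leave more genes outside it.

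**Figure D2:**
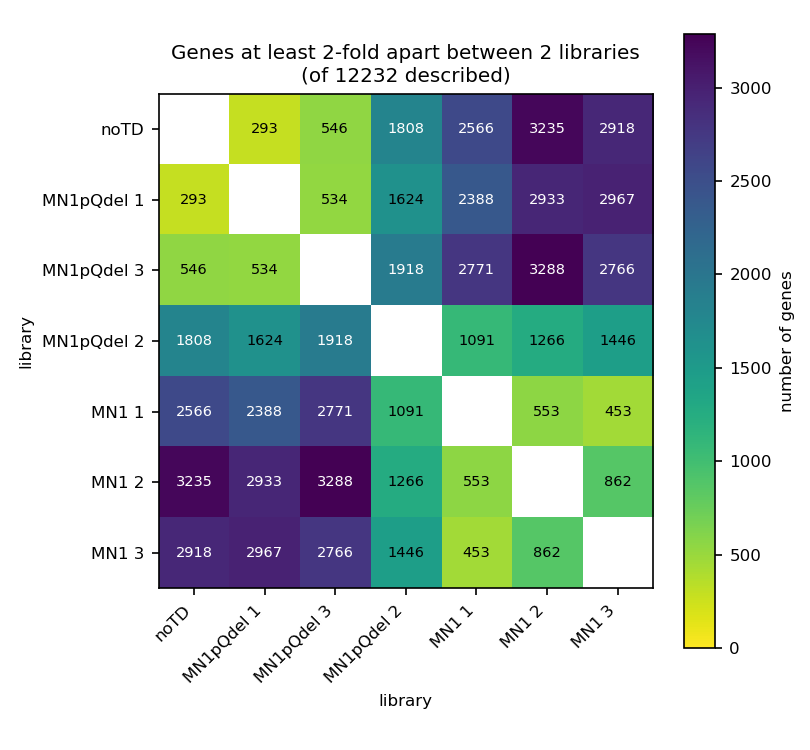
Number of genes at least 2-fold apart between each pair of the 7 libraries, out of 12232 described (colour scale and printed numbers, libraries on both axes). The block of noTD with MN1pQdel 1 and 3 holds 293 to 546 genes, and MN1pQdel 2 differs from noTD in 1808 and from the MN1 libraries in 1091 to 1446.

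The genes above noTD by the 2-fold rule in every MN1pQdel library were few, and none belonged to any of the 35 gene lists examined. They made up 0.0818% of all genes described, so their absence from the lists is near that share. Of the 10, Mn1 was the highest in level, and 2 were numbered genes annotated as processed pseudogenes, Gm13502 and Gm48113, named here because the count is small. Gm13502 had 0 counts in noTD and stood at 2.54, 3.42 and 3.83 CPM in MN1pQdel and at 5.63, 4.49 and 7.68 CPM in MN1. Gm48113 stood at 0.959 CPM in noTD, at 4.82, 3.40 and 4.60 CPM in MN1pQdel and at 1.61, 1.62 and 1.85 CPM in MN1. Diras2, a small GTPase gene also named for that reason, stood at 0.685 CPM in noTD and at 1.85, 3.48 and 1.42 CPM in MN1pQdel. Zbed6, a transcription factor gene placed within an intron of Zc3h11a on the same strand, stood at 1.32 CPM in noTD and at 7.13, 6.67 and 9.29 CPM in MN1pQdel. It lay at 6.10, 7.73 and 9.18 CPM in MN1, so both transduced groups sat above noTD. Zc3h11a itself showed no such gap, with 99.1 CPM in noTD and 97.5, 97.9 and 114 CPM in MN1pQdel, and reads shared by the pair cannot be assigned from a count table.

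Top3b, a topoisomerase gene that overlaps Vpreb1 on the opposite strand, stood at 2.60 CPM in noTD and at 11.2, 19.8 and 7.18 CPM in MN1pQdel. Nefh, which encodes the neurofilament heavy chain, stood at 3.32 CPM and at 7.53, 9.27 and 8.07 CPM. Zbtb16, the gene of the transcription factor PLZF, stood at 2.85 CPM and at 7.42, 6.47 and 7.95 CPM. For these 3 genes the noTD level lay below all 6 transduced libraries: MN1 held 20.2, 20.2 and 17.5 CPM of Top3b, 13.2, 15.5 and 16.4 CPM of Nefh and 10.3, 10.9 and 14.1 CPM of Zbtb16. Slc12a2, the gene of the sodium-potassium-chloride cotransporter NKCC1, followed the same order, at 1.45 CPM in noTD, 3.32, 6.02 and 3.03 CPM in MN1pQdel and 9.34, 9.35 and 11.4 CPM in MN1.

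Myo18b, an unconventional myosin gene on chromosome 5, was the called gene whose MN1 level did not lie above noTD. It stood at 11.98 CPM in noTD and at 28.8, 29.9 and 25.7 CPM in MN1pQdel, a mean log2 difference of 1.23 ± 0.11 (SD, n = 3). The MN1 libraries held 10.5, 11.7 and 4.75 CPM. Myo18b was 1.65 higher in MN1pQdel than in MN1 on the log2 scale (SE 0.34, adjusted p = 0.0238 by edgeR with Benjamini-Hochberg correction). The call held without MN1 replicate 3 or MN1pQdel replicate 2 and was lost without any 1 of the other 4 libraries, at log2 fold changes of 1.63 to 1.88. A few genes next in rank lay above noTD in all 3 libraries but missed the 2-fold rule in 1 or 2 of them. Among them Slc19a2, a thiamine transporter gene, stood at 9.34 CPM in noTD and at 17.4, 20.9 and 18.7 CPM in MN1pQdel, Tmc7 at 5.07 CPM and at 9.35, 14.8 and 8.87 CPM, Plcxd2 at 2.41 CPM and at 4.31, 5.50 and 5.99 CPM, and Slc39a2, a zinc transporter gene, at 1.48 CPM and at 2.85, 2.60 and 3.35 CPM. These 4 were ranked by the gap between noTD and the nearest MN1pQdel library, so their lack of overlap follows from that choice.

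Interferon-stimulated genes made up the lower end, and all 3 MN1pQdel libraries had them in common. Of 26 genes in the list, 24 were described, and 15 of these were lower than noTD at least 2-fold in every MN1pQdel library, against 0.703% of all genes described. None was higher. The noTD level lay above the MN1pQdel range for 23 of the 24 and inside it for Mx1, whose level was 5.21 CPM in noTD. The median of the list was -2.55 on the log2 scale, beside 0.04 over all genes described. By library it was -2.63, -2.90 and -2.67, so replicate 2 did not stand apart here. Without replicate 2 the median was -2.65 and 18 genes were called. The same medians for the MN1 libraries against this noTD library were -0.27, -1.62 and 0.12.

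**Figure D3:**
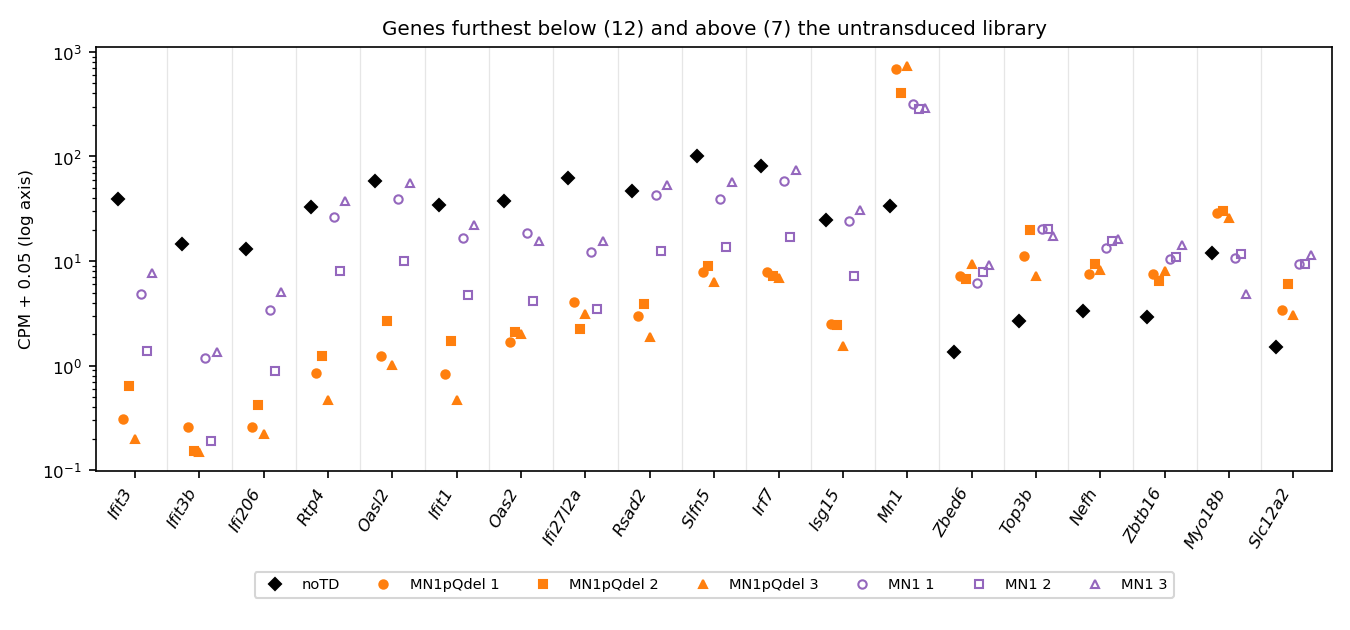
Level in each of the 7 libraries (CPM + 0.05, log scale) of the 12 genes furthest below noTD and of 7 called genes above it (genes along the horizontal axis, symbols by library). The MN1pQdel points lie below the noTD diamond for the first 12 genes and above it for the last 7, and the MN1 libraries lie between the 2 for most of the first 12.

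Ifit3, which encodes a tetratricopeptide protein that binds viral RNA complexes, lay furthest below noTD. Ifit3 stood at 39.2 CPM in noTD and at 0.260, 0.593 and 0.149 CPM in MN1pQdel, a mean log2 difference of -6.88 ± 0.87 (SD, n = 3). The MN1 libraries lay between, at 4.80, 1.34 and 7.66 CPM. Its near-identical neighbour Ifit3b, which can share reads with it, stood at 14.6 CPM and at 0.211, 0.102 and 0.0994 CPM. Ifit1, of the same family, stood at 34.0 CPM in noTD and at 0.781, 1.66 and 0.422 CPM in MN1pQdel. Rsad2, the gene of the antiviral enzyme viperin, stood at 46.5 CPM and at 2.96, 3.85 and 1.84 CPM. These genes were ranked by the gap between noTD and the nearest MN1pQdel library, so a wide gap in every library follows from that choice.

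Oasl2 and Oas2, genes of the oligoadenylate synthetase family that senses double-stranded RNA, followed. Oasl2 stood at 58.5 CPM in noTD and at 1.19, 2.64 and 0.969 CPM in MN1pQdel, and Oas2 at 37.7 CPM and at 1.63, 2.05 and 1.94 CPM. Rtp4, the gene of a chaperone that also limits virus replication, stood at 32.6 CPM in noTD and at 0.797, 1.19 and 0.422 CPM in MN1pQdel, a mean log2 difference of -5.38 ± 0.71 (SD, n = 3). MN1 held 26.6, 8.03 and 37.3 CPM of Rtp4, a range that includes noTD. Isg15, the gene of a ubiquitin-like modifier, stood at 24.6 CPM in noTD and at 2.44, 2.39 and 1.49 CPM in MN1pQdel, with 24.4, 7.22 and 30.6 CPM in MN1. MN1 replicate 2 was the lowest of the MN1 libraries for all 12 genes furthest below noTD.

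Irf7, the transcription factor that amplifies type I interferon, stood at 81.2 CPM in noTD and at 7.74, 7.18 and 6.83 CPM in MN1pQdel, the tightest group of the 12. Slfn5, of the Schlafen family, stood at 101 CPM and at 7.79, 8.84 and 6.31 CPM. Ifi206, a nucleic acid sensor gene of the Ifi200 family, stood at 12.9 CPM and at 0.211, 0.368 and 0.174 CPM. Ifi27l2a stood at 62.5 CPM and at 4.00, 2.19 and 3.06 CPM. The members of the Ifit, Oas and Ifi200 families are close copies, so reads can be shared among them and the levels of single members are uncertain. Irf7 overlaps Phrf1 on the opposite strand, and the sources used here do not state whether strand was used in counting.

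The receptor genes of the pathway differed less than the genes above. Ifnar1 stood at 63.5 CPM in noTD and at 52.0, 63.6 and 69.4 CPM in MN1pQdel, with noTD inside the range, and Ifnar2 at 75.7 CPM and at 69.7, 67.3 and 69.9 CPM. Irf9 stood at 49.3 CPM in noTD and at 14.7, 16.5 and 27.6 CPM in MN1pQdel. Stat2 stood at 54.3 CPM and at 26.3, 27.3 and 47.5 CPM. Both transducers lay below noTD in every MN1pQdel library but by less than 2-fold in the nearest. The RNA sensor gene Ifih1 stood at 21.8 CPM in noTD and at 8.25, 20.9 and 7.06 CPM in MN1pQdel, and Ifit2 at 26.2 CPM and at 4.49, 14.6 and 3.35 CPM, so for both replicate 2 lay nearest to noTD. Of 21 interferon ligand genes in the table, looked at after the values above were seen, none but Ifnz had more than 5 counts in any of the 7 libraries. Ifnb1 had 2 counts in noTD and 0 in each MN1pQdel library, which is below the floor of 3 counts.

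The MN1 libraries allow a test that noTD does not. Between 3 MN1pQdel and 3 MN1 libraries, edgeR's quasi-likelihood test, at a Benjamini-Hochberg false discovery rate of 0.05, called 1643 genes higher (11.1% of 14808) and 901 lower (6.08%) in MN1pQdel. With the replicate number as a block these counts were 2523 (17.0%) and 2022 (13.7%), and with library totals in place of TMM scaling 38.2% of the calls were higher, against 64.6%. Of the 26 interferon-stimulated genes, 16 were lower in MN1pQdel than in MN1 and 0 higher. Rtp4 was lower, at a log2 difference of -4.87 (SE 0.68, adjusted p = 0.00876 by edgeR with Benjamini-Hochberg correction), and its call was lost without MN1pQdel replicate 1 (adjusted p = 0.0516 by edgeR). Oasl2 was lower, at a log2 difference of -4.44 (SE 0.73, adjusted p = 0.0129 by edgeR, Benjamini-Hochberg) and lost its call without the same library (adjusted p = 0.0704 by edgeR). Ifit3 was lower, at a log2 difference of -3.75 (SE 0.77, adjusted p = 0.0247 by edgeR, Benjamini-Hochberg), which did not hold with the block (0.0527) and held in 2 of the 6 leave-one-out fits, those without MN1 replicate 2 or MN1pQdel replicate 2. Ifi27l2a did not pass (-1.74, SE 0.55, adjusted p = 0.0702 by edgeR, Benjamini-Hochberg), and passed with the block (0.0393).

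The promoters of the lower genes are shown because many carried the interferon element. RefSeq promoters (GRCm38.p6, 250 bases before each start) were searched on both strands for GAAANNGAAA, which reads TTTCNNTTTC on the other strand, and overlapping matches were counted. It was present in 936 of 27025 genes of the promoter table (3.46%) and in 319 of the 9354 described genes found there (3.41%). Of the 86 lower genes 67 had a promoter in the table, and 24 of these (35.8%) held the motif. Of the 15 lower genes of the interferon list 11 had one, and 6 of these (54.5%) held it. Of the 10 higher genes 3 had one, and 0 held it. These shares are descriptions, and a match is not evidence of binding. The 160 bases before the start are printed 5′ to 3′ on the strand of the gene, with the matches in capitals.
Ifit3, chromosome 19, 34583369 to 34583528, plus strand: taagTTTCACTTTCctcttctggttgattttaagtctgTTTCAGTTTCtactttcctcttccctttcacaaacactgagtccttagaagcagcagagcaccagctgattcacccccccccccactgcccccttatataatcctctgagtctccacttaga
Ifit1, chromosome 19, 34640729 to 34640888, plus strand: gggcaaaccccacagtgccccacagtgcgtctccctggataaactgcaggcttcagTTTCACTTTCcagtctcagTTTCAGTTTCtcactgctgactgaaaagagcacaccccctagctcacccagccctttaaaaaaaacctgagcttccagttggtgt
Rsad2, chromosome 12, 26456453 to 26456612, minus strand: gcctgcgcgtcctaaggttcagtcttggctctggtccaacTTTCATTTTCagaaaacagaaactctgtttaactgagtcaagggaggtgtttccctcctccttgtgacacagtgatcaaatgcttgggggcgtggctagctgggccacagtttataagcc
Slfn5, chromosome 11, 82951942 to 82952101, plus strand: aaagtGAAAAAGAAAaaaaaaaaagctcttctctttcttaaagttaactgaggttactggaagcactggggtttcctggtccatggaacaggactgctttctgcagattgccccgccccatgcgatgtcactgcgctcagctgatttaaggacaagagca
Isg15, chromosome 4, 156200819 to 156200978, minus strand: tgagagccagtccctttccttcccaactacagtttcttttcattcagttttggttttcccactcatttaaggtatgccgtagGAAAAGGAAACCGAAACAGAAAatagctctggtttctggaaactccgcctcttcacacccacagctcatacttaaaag
Isg15 held 3 overlapping matches, Ifit3 and Ifit1 held 2 each, and Oasl2 and Irf7 held none in their windows.

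Monocyte and macrophage genes included the next called members. Of 27 described markers 3 were lower in every MN1pQdel library, against 0.703% of all genes described, and 0 were higher. Without replicate 2, 6 were lower, against 1.14%. The noTD level lay above the MN1pQdel range for 16 of the 27, against 15.8%, and the list median was -0.62, beside 0.04 over all genes, and -0.91 without replicate 2. Apoe, the gene of the lipid carrier apolipoprotein E, stood at 99.6 CPM in noTD and at 26.7, 19.9 and 8.47 CPM in MN1pQdel. C1qa, a complement gene of macrophages, stood at 4.80 CPM and at 2.33, 1.13 and 0.994 CPM, and Cx3cr1, the fractalkine receptor gene, at 13.9 CPM and at 6.18, 2.39 and 6.86 CPM. Csf1r, which encodes the receptor for M-CSF, was measured at 196 CPM in noTD and at 105, 128 and 92.2 CPM in MN1pQdel, below noTD in all 3 but by less than 2-fold in replicates 1 and 2. The summed level of all 28 markers was 2905 CPM in noTD and 2596, 2632 and 1994 CPM in MN1pQdel, and no described marker lay 2-fold higher. Both these markers and the interferon-stimulated genes lay below noTD in MN1pQdel by list median. In MN1 libraries 1, 2 and 3 the medians were -1.31, -1.72 and -0.73 for these markers. The interferon list stood at -0.27, -1.62 and 0.12 there. A link between the lists was not tested.

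Mature neutrophil genes also lay below noTD, by a list median of -0.53, or -0.43 without replicate 2. By library the median was -0.29, -0.83 and -0.53. Of 18 markers 3 were lower, against 0.703% of all genes described, and 0 higher, and noTD lay above the range for 11, against 15.8%. Il1b, the interleukin-1 beta gene, stood at 133 CPM in noTD and at 25.2, 55.2 and 21.2 CPM in MN1pQdel. Retnlg stood at 87.9 CPM and at 41.5, 14.6 and 16.2 CPM, and Fpr1, the formyl peptide receptor gene, at 153 CPM and at 50.3, 37.3 and 74.7 CPM. The most abundant markers lay close together, with S100a8 at 8219 CPM in noTD and at 7882, 7889 and 6044 CPM in MN1pQdel. Among 15 secondary and tertiary granule markers Mmp8, a collagenase gene, was lower, at 809 CPM and at 355, 291 and 198 CPM. Ltf, the lactoferrin gene, stood at 5488 CPM in noTD and at 5986, 4262 and 3969 CPM in MN1pQdel, with noTD inside the range. MN1 held 459, 394 and 141 CPM of Ltf. Cebpe, the transcription factor gene of late granulocyte maturation, stood at 125 CPM in noTD, at 121, 141 and 133 CPM in MN1pQdel and at 37.4, 30.0 and 24.6 CPM in MN1. Cebpe was 2.11 higher in MN1pQdel than in MN1 on the log2 scale (SE 0.18, adjusted p = 0.00436 by edgeR with Benjamini-Hochberg correction), and passed in each of the 6 leave-one-out fits.

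Eosinophil, mast cell and basophil genes split the MN1pQdel libraries. None of the 9, 18 and 16 described markers was called in either direction. Over all genes described 0.0818% were called higher and 0.703% lower, so 0 calls is near that share. The noTD level lay above the MN1pQdel range for 5, 4 and 3 of them, against 15.8% of all genes described. The eosinophil median was -0.17, -3.72 and -0.12 in replicates 1, 2 and 3, the mast cell median -0.12, -2.56 and 0.27, and the basophil median 0.10, -1.83 and 0.22. By list median, replicates 1 and 3 thus stood near the noTD level and replicate 2 far below it. Prg2, the gene of eosinophil major basic protein, stood at 2293 CPM in noTD and at 2115, 127 and 2112 CPM in MN1pQdel. Epx, the eosinophil peroxidase gene, stood at 806 CPM and at 760, 73.5 and 884 CPM. Cpa3, the carboxypeptidase gene of mast cell granules, stood at 7079 CPM and at 7540, 1710 and 8850 CPM. Mcpt8, a basophil protease gene, was spread less, at 1006 CPM and at 1083, 662 and 1199 CPM. The MN1 libraries held 6.50 to 11.5 CPM of Prg2 and 3.66 to 5.32 CPM of Epx, so replicate 2 lay between them and noTD.

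**Figure D4:**
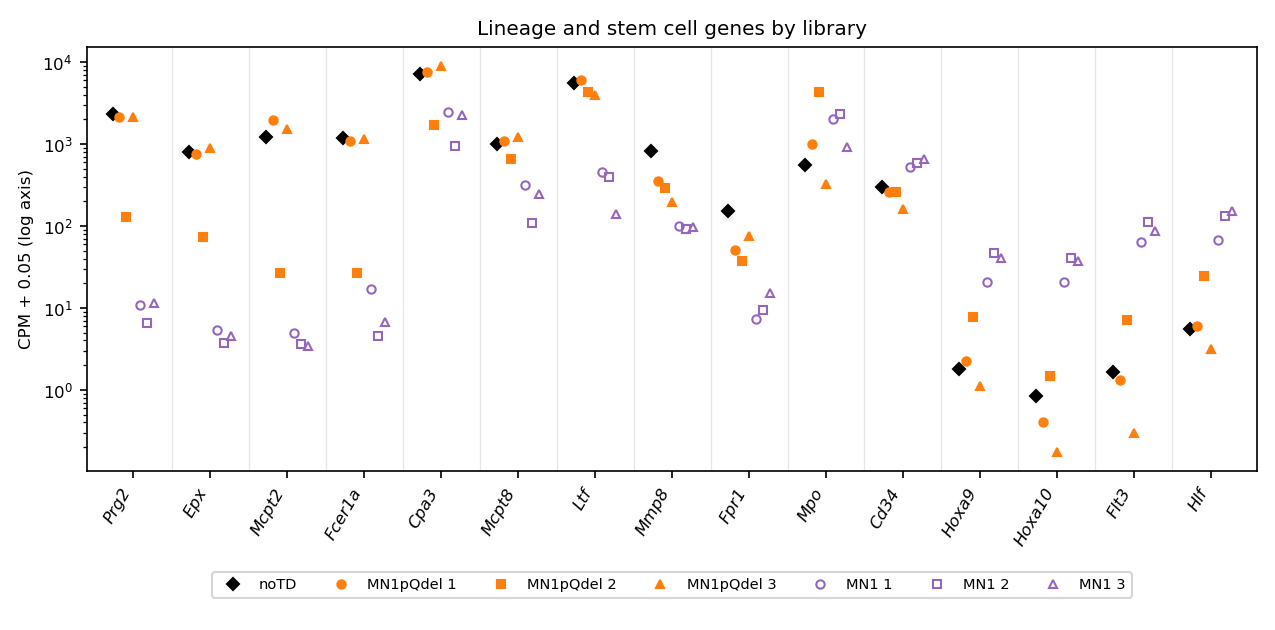
Level in each of the 7 libraries (CPM + 0.05, log scale) of lineage, granule and stem cell genes (genes along the horizontal axis, symbols by library). MN1pQdel 1 and 3 lie beside noTD for Prg2, Epx, Mcpt2, Fcer1a and Cpa3, where MN1pQdel 2 is lower (Prg2 127 CPM against 2115 and 2112), and MN1pQdel 2 is the highest of the group for Mpo, Hoxa9 and Flt3.

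Primary granule genes split them the other way. The median of the 15 described primary granule and promyelocyte markers was 0.26, 1.39 and -0.40 in replicates 1, 2 and 3, and -0.01 over replicates 1 and 3. Mpo, the myeloperoxidase gene, stood at 550 CPM in noTD and at 998, 4301 and 324 CPM in MN1pQdel. Cebpa, which directs progenitors to the granulocyte line, stood at 102 CPM and at 115, 259 and 108 CPM, so the difference rested on replicate 2. Spi1, the PU.1 gene, stood at 383 CPM and at 374, 355 and 301 CPM.

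HOXA genes, a hallmark of full-length MN1, stayed low in MN1pQdel. Hoxa9, the 1 HOXA gene of 11 above the 1 CPM filter, stood at 1.73 CPM in noTD and at 2.20, 7.69 and 1.07 CPM in MN1pQdel, with noTD inside the range. Hoxa10 stood at 0.795 CPM and at 0.358, 1.43 and 0.124 CPM. The MN1 libraries held 20.7, 46.8 and 40.3 CPM of Hoxa9 and 20.9, 41.0 and 36.7 CPM of Hoxa10. The HOX cofactor gene Meis1 stood at 39.5 CPM in noTD and at 32.0, 41.8 and 41.9 CPM in MN1pQdel. Flt3, a receptor gene of early progenitors, stood at 1.62 CPM and at 1.29, 7.00 and 0.248 CPM, and Hlf, a stem cell transcription factor gene, at 5.45 CPM and at 5.95, 24.3 and 3.13 CPM. Replicate 2 was the highest MN1pQdel library for Hoxa9, Hoxa10, Flt3 and Hlf, and still below each MN1 library. Hoxa9 was lower in MN1pQdel than in MN1, at a log2 difference of -3.29 (SE 0.74, adjusted p = 0.0300 by edgeR with Benjamini-Hochberg correction), a call kept in 1 of the 6 leave-one-out fits, the one without MN1pQdel replicate 2.

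Of 19 stem and multipotent progenitor markers 1 was called, as lower, against 0.703% of all genes described. The noTD level lay above the MN1pQdel range for 3 of the 19 and below it for 3, against 15.8% and 24.4% of all genes described. Ly6a, the Sca-1 gene, stood at 161 CPM in noTD and at 41.2, 9.15 and 37.0 CPM in MN1pQdel, a mean log2 difference of -2.74 ± 1.21 (SD, n = 3), and at 33.0, 9.68 and 37.2 CPM in MN1. Ly6a is also raised by interferon in blood cells, and a link to the interferon list was not tested. Egr3, an immediate early transcription factor gene, was the 1 called member of 15 stress and immediate early genes, against the same 0.703%. It stood at 65.5 CPM in noTD and at 24.3, 13.6 and 9.49 CPM in MN1pQdel. Gata2, a factor of stem cells and mast cells, stood at 1011 CPM and at 838, 353 and 1131 CPM, with noTD inside the range.

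Ribosome biogenesis and cholesterol synthesis genes lay slightly above noTD, with no member called. For 17 of 22 ribosome biogenesis genes the noTD level was below the MN1pQdel range, against 24.4% of all genes described, and the list median was 0.30, or 0.15 without replicate 2. Ncl, the nucleolin gene, stood at 727 CPM in noTD and at 935, 1335 and 852 CPM in MN1pQdel. Of 21 cholesterol synthesis genes 13 had noTD below the range, at a median of 0.46, or 0.39 without replicate 2, and none had it above. Hsd17b7, an enzyme gene of that pathway chosen after its values were seen, stood at 24.8 CPM and at 35.4, 41.6 and 52.0 CPM. Tfrc, the transferrin receptor gene, stood at 138 CPM and at 238, 322 and 266 CPM, under 2-fold in the nearest library. The DNA replication and mitosis median was 0.21 and rested on replicate 2, at 0.06, 0.58 and 0.00 by library and 0.06 without replicate 2, with Mki67 at 605 CPM in noTD and at 624, 830 and 733 CPM in MN1pQdel. Glycolysis genes lay at the noTD level, with a median of -0.01 and noTD inside the range for 14 of 16.

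**Figure D5:**
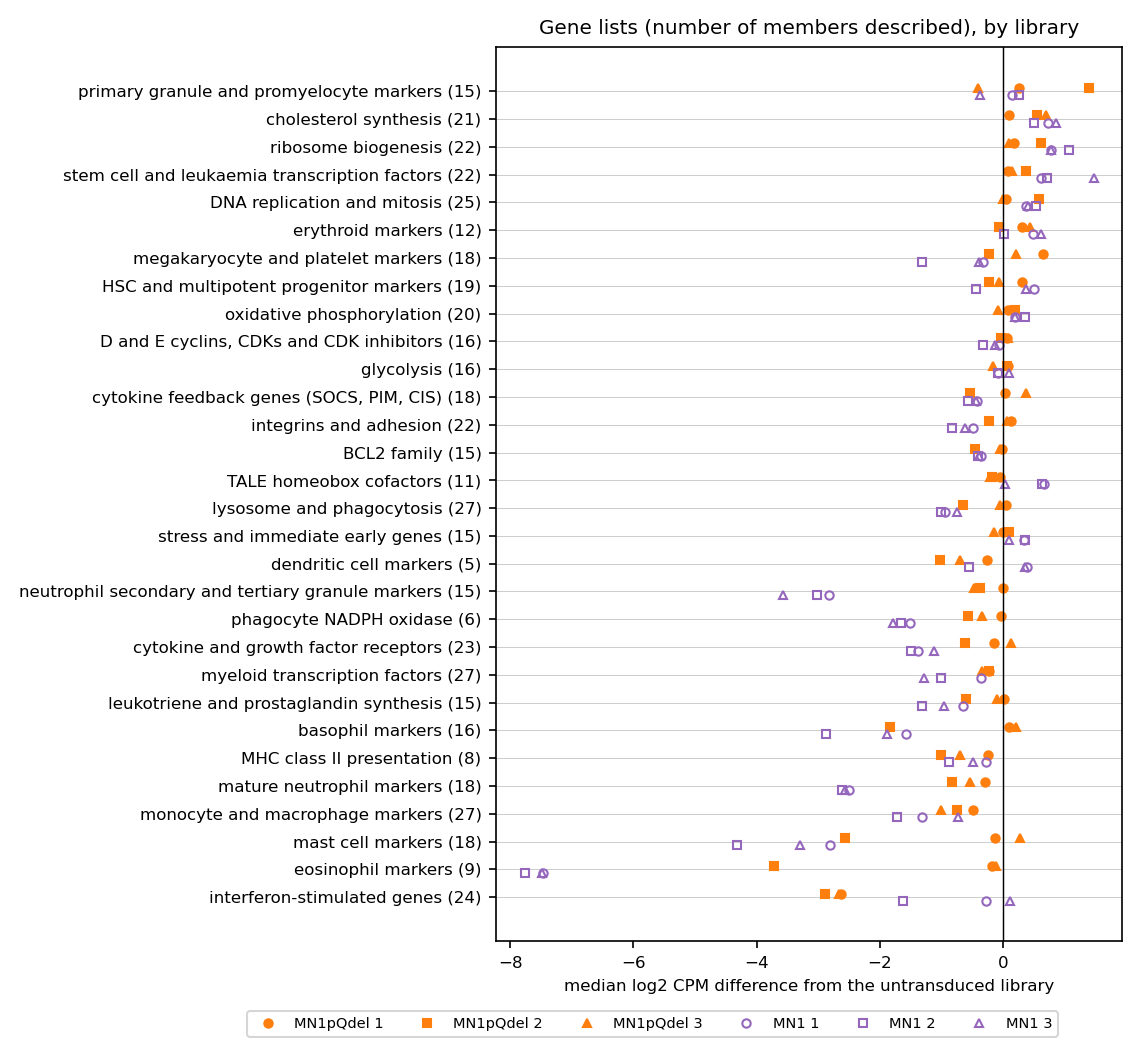
Median log2 CPM difference from noTD (horizontal axis) for each gene list with at least 5 described members (vertical axis, number of members in brackets), 1 symbol per library. The interferon-stimulated list is the lowest for MN1pQdel 1 and 3, and the 3 MN1pQdel symbols lie together there (-2.63, -2.90 and -2.67), while on the eosinophil, mast cell and basophil lists MN1pQdel 2 lies apart from MN1pQdel 1 and 3.

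Of the 35 lists, 6 held a called gene, and all 24 such list entries were lower in MN1pQdel. Besides the interferon list these were the monocyte and macrophage, mature neutrophil, secondary and tertiary granule, stress and stem cell lists described above. The remaining 29 lists held 0 called genes in either direction, among them the TALE homeobox cofactors, cytokine receptors, cytokine feedback genes, cell cycle, BCL2 family, lysosome, integrin, MHC class II, erythroid and megakaryocyte lists. Over all genes described 0.0818% were called higher and 0.703% lower, so 0 calls in a short list is near that share. In MHC class II presentation noTD lay above the range for 4 of 8 described genes, against 15.8% of all genes, and the median was -0.50, with Cd74 at 41.1 CPM in noTD and at 23.2, 13.3 and 24.2 CPM in MN1pQdel. Pim1, a target of cytokine signalling, stood at 437 CPM in noTD and at 477, 429 and 400 CPM in MN1pQdel, and Ccnd3, the cyclin D3 gene, at 516 CPM and at 513, 505 and 521 CPM.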

How the data were processed

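The deposited table holds the authors' estimated counts for 34305 rows in 7 libraries; 32.5% of values were not whole (tolerance 1e-06), and they were rounded here. The names kallisto, DESeq2 and GRCm38 appear, per the submitters' processing notes, with no version; strand handling is not stated. Spreadsheet date names replaced symbols in 26 rows (0.172% of counts); 18 of these were described and none is named. Read sharing between close copies and overlapping genes cannot be resolved from the table.

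All 7 libraries were scaled together by TMM (edgeR 4.0.16, R 4.3.3), and log2 CPM values used a prior count of 2. The noTD comparison has no p-value. MN1pQdel and MN1, with 3 libraries each, were compared by edgeR's quasi-likelihood test with Benjamini-Hochberg adjustment over 14808 genes, a procedure tested on simulated data. These p-values measure the spread between libraries, which may be technical. Same-numbered MN1 and MN1pQdel libraries deviated together (correlations of 0.477, 0.368 and 0.406 across genes, against -0.363 to -0.0489 for other pairs), so the numbers pair the samples and the blocked fit is given where it changes a call. No pair of libraries within the MN1 or the MN1pQdel group agreed within sampling noise.

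Named were Mn1, the 12 genes per direction furthest from the nearest MN1pQdel library (at least 100 counts in noTD or in every MN1pQdel library), up to 3 called genes per list or otherwise its most abundant member, and a fixed set of lineage regulators and markers. Predicted genes and pseudogenes were left out of this choice, and Gm13502 and Gm48113 were named apart from it. The members, the 35 lists (21 pathway, 14 marker, 629 entries, 4 not in the table) and the rule were chosen with earlier results of these data known. Alternatives were library totals, DESeq2 size factors (DESeq2 1.42.0), other prior counts, filters and folds, a DESeq2 test, the replicate block and leaving out single libraries. Gene coordinates are from GENCODE and promoters from RefSeq (GRCm38.p6). Some genes are not reported here.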

Additional observations from a re-analysis of the deposited data

How the results depend on the processing

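Of the 96 genes called against noTD, 90 kept their call with library totals, 95 with DESeq2 size factors, 96 with a prior count of 0.5 and 94 with one of 5. The 28 named genes among them lost no call in these 4 settings. Leaving out a library can only add calls, since a call needs every library. Counts moved more: higher genes were 156 without the filter, 5 at a 5 CPM filter, 43 at 1.5-fold, 3 at 4-fold and 19 to 36 with a library left out; lower genes were 277 without the filter, 242 at 1.5-fold, 26 at 4-fold and 126 to 162 with a library left out. For MN1pQdel against MN1, the fit with the replicate block, which follows the pairing of the numbers, gave 2523 higher and 2022 lower genes. Library totals gave 1847 lower and a median log2 fold change of -0.19 over all genes, against 0.01 with TMM, and the DESeq2 test gave 1906 lower. Leaving out 1 library gave 378 to 3248 higher and 95 to 3146 lower, the highest of each without MN1pQdel replicate 2; the cause was not tested. The single noTD library cannot be left out, so its own variation is unknown, and no result against it has a replicate check on that side. At the noTD depth a gene at 0 may reach 0.0822 CPM by counting error alone.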

Other observations

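Further genes known to respond to interferon or to mark activated phagocytes, picked after their values were seen and outside the lists, also lay below noTD. Slfn4 stood at 110 CPM in noTD and at 12.6, 8.25 and 5.79 CPM in MN1pQdel, and Siglec1, a macrophage lectin gene, at 16.3 CPM and at 1.95, 2.35 and 1.14 CPM. Ifi204 stood at 59.9 CPM and at 8.39, 7.24 and 7.30 CPM, and Acod1, the itaconate-producing enzyme gene, at 126 CPM and at 36.1, 23.1 and 45.4 CPM. All 4 were called genes, so a gap of at least 2-fold in every MN1pQdel library follows from the rule for a call.

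Some genes passed the 2-fold rule only without MN1pQdel replicate 2. Mmp12, a macrophage elastase gene, stood at 41.7 CPM in noTD and at 126, 18.8 and 89.2 CPM in MN1pQdel, and Cd36, a scavenger receptor gene, at 4.08 CPM and at 18.7, 1.00 and 9.52 CPM. Igfbp5 stood at 52.1 CPM and at 110, 0.634 and 453 CPM. For these genes replicate 2 lay below noTD and replicates 1 and 3 above it. Ifitm3, an interferon-stimulated gene, stood at 229 CPM and at 58.5, 138 and 34.2 CPM, below noTD in every MN1pQdel library, with replicate 2 nearest to it.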
